A study of Mus musculus with 12 samples.

Results

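AP-1 is a transcription factor made of FOS, JUN, BATF and ATF proteins, and 9 of its genes were measured here: Fos, Fosb and Fosl2 of the FOS family, Jun, Junb and Jund of the JUN family, and Batf, Batf3 and Atf3. They were taken by symbol from the 43626 genes of the count matrix, and each symbol matched 1 gene. The rule used no measured value, but the 9 genes were chosen with earlier results of these data known. Their RNA was followed in 12 libraries of mouse splenic CD4+ T cells in 4 groups of 3. The donors were Eomes flox/GFP mice, in which 1 copy of Eomes, a T-box transcription factor gene, can be deleted by cre and the other reports its activity through green fluorescent protein (GFP). Donors labelled "no cre" are called Het here, as in the sample names, and donors with Lck-cre, a recombinase under a promoter active in T cells, are called KO. Naive CD4+ T cells (CD45RBhi CD25-) of either genotype were given to adult male Rag2-/- mice, which lack T and B cells of their own but keep their myeloid, erythroid and NK cells. The spleen of each recipient was taken after 3 weeks and its CD4+ cells were separated by GFP, so that GFP marks cells with an active Eomes reporter allele in both genotypes, and the 2 libraries of a genotype with the same number came from 1 recipient. Both genotypes carry the GFP allele and both were exposed to an empty host, so no group holds cells of a wild-type donor or a replete host, and the number of donors is not given in the labels.

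AP-1 proteins bind DNA as pairs through a basic leucine zipper. JUN proteins pair with each other or with FOS proteins, while BATF proteins pair with JUN proteins and, in T cells, act together with IRF4 or IRF8. Fos, Fosb, Jun, Junb and Atf3 are immediate-early genes, whose transcription starts within minutes of antigen receptor signalling and also of mechanical or thermal stress during tissue preparation, whereas Jund and Batf are expressed more steadily.

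The 250 bases upstream of the start site are shown for 4 members, Fos, Fosb, Junb and Atf3, because these immediate-early genes were higher in the GFP+ library of every recipient (below) and each holds the core of a cyclic AMP response element, a sequence that ATF/CREB proteins and some AP-1 pairs bind. Sequences are from RefSeq for GRCm38.p6, 5′ to 3′ on the strand of the gene, and all 9 members had an entry. Capitals mark this core, TGACG, on either strand, so that it reads CGTCA in Atf3, and, in Fos, the TATA box TATAAA. The Fos promoter spans chr12:85473640-85473889 on the forward strand, and those of Fosb, Junb and Atf3 span chr7:19310046-19310295, chr8:84978749-84978998 and chr1:191183334-191183583 on the reverse strand; for Atf3 the RefSeq start lies inside the longer gene model of the annotation.
Fos: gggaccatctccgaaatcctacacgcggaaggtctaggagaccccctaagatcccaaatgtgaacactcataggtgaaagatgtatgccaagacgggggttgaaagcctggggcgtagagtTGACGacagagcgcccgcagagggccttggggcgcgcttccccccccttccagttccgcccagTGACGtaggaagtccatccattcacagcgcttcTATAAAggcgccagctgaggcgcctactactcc
Fosb: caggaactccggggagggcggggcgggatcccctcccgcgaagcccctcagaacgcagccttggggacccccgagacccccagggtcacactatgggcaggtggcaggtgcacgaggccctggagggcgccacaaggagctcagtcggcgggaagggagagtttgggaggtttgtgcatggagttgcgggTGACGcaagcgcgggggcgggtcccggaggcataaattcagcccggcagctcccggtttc
Junb: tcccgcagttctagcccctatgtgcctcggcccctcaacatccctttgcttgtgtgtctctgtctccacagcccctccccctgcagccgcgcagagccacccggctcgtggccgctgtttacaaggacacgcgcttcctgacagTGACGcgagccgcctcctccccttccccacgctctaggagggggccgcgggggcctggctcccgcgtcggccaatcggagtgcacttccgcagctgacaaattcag
Atf3: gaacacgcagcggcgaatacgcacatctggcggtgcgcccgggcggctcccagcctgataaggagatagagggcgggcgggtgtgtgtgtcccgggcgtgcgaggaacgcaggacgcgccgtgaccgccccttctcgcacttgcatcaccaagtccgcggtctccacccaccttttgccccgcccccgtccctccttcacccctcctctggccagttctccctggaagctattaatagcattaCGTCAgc
The core stood at -129 to -125 and at -66 to -62 from the start in Fos, at -60 to -56 in Fosb, at -106 to -102 in Junb and at -7 to -3 in Atf3. Batf, whose RNA was not called in any comparison below, held it as well, at -98 to -94, so that 5 of 9 members had it, beside 17.8% of 32851 promoters of the same length. This core was added to the search after the sequences had been seen. The TATA box lay at -33 to -28 in Fos and in 12.4% of all promoters. The full element TGACGTCA (1.55% of promoters), the AP-1 site TGANTCA (6.75%), the CArG box of serum response elements (1.47%), the EGR site GCGTGGGCG (0.536%) and the T-box site AGGTGTNA (2.68%) were searched on both strands and matched in 0 of 9, which says only that these letters are not in these 250 bases.

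The members lie on 6 chromosomes of GRCm38. Fos (chromosome 12, 85473890 to 85477273) and Batf (85686669 to 85709087) are on the same strand with 1 gene of the matrix lying wholly between them, Jdp2, which encodes an AP-1 repressor protein. Batf3 (chromosome 1, 191097847 to 191108945) and Atf3 (191170296 to 191218039) face each other across 61350 bases with 2 genes of the matrix between. Jund (chromosome 8, 70697739 to 70700616) and Junb (84976909 to 84978748) share a chromosome but lie 14276292 bases apart. Fosb is on chromosome 7 (19302721 to 19310045), Fosl2 on chromosome 5 (32136472 to 32157831) and Jun on chromosome 4 (95049034 to 95052222). The 3 JUN genes have a single exon. Jun and Jund overlap a gene on the opposite strand, by 232 bases with Junos and by 543 bases with Gm11175, which were listed with 196 and 139 counts over all libraries against 11393 for Jun and 25613 for Jund.

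Total counts ran from 2116894 to 18167236 per library, lower in GFP+ libraries, which came from 18000 to 117000 cells, than in GFP- libraries, from 645000 to 2100000 cells. In the GFP+ libraries of Het replicate 2 and KO replicate 2, 4 features (mt-Rnr1, mt-Rnr2, Gm26917 and 1 without a symbol) took 58.3% and 54.3% of the counts, beside 16.3% to 30.9% elsewhere, and KO GFP+ replicate 1 lay apart from the other GFP+ libraries on the first principal component (-17.8, against 29.6 to 85.4). Levels are CPM, counts scaled to library size and composition by TMM. Eomes, the targeted gene and the check of the sort, was at 115, 123 and 89.8 CPM in Het GFP+, 46.6, 45.7 and 31.6 in KO GFP+, 9.19, 3.68 and 2.16 in Het GFP- and 4.73, 1.95 and 2.19 in KO GFP- replicates 1, 2 and 3. The groups GFP+ and GFP- did not overlap in either genotype. The labels do not give the deleted exons, and the count covers the whole gene, so it checks the reporter sort and not the deletion. The 8 CD4 T cell genes summed to 1892 to 3258 CPM in every library, and the sums of CD8 T cell, NK cell and B cell genes were each at 20.7 CPM or less. All 9 members passed the filter on low counts, Batf3 on 0 to 15 counts per library and Atf3 on 5 to 94.

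Expression of the family was dominated by Junb in all 4 groups. Per kilobase of exon, Junb stood at 115 ± 41.0 CPM in Het GFP-, 153 ± 22.5 in Het GFP+, 139 ± 27.6 in KO GFP- and 175 ± 5.01 in KO GFP+ (SD, n = 3), above every other member in every library of the same group. Jund came second at 55.2 ± 3.98, 76.5 ± 16.0, 65.3 ± 6.20 and 105 ± 27.8 CPM per kb in the same order of groups, followed by Batf, the partner of IRF4 in helper T cells, at 50.2 ± 2.86, 59.1 ± 17.8, 61.9 ± 9.92 and 54.6 ± 4.41. Jund and Batf overlapped in all groups but KO GFP+, where Jund was the higher. Fos and Jun followed as neighbours whose ranges overlapped in every group, at 18.8 ± 9.64 and 24.5 ± 3.33 CPM per kb in Het GFP- and at 53.3 ± 17.6 and 40.9 ± 6.64 in KO GFP+. In both GFP+ groups Fos also overlapped Batf. These are bulk libraries, in which fewer cells of a type and less RNA per cell cannot be told apart. Fosb was next (5.94 ± 1.10 in Het GFP- to 26.4 ± 7.55 in KO GFP+), then Fosl2 (2.25 ± 0.503 in KO GFP- to 6.90 ± 3.49 in Het GFP+), and Atf3 and Batf3 were lowest with 2.87 CPM per kb or less in every group mean.

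**Figure D1:**
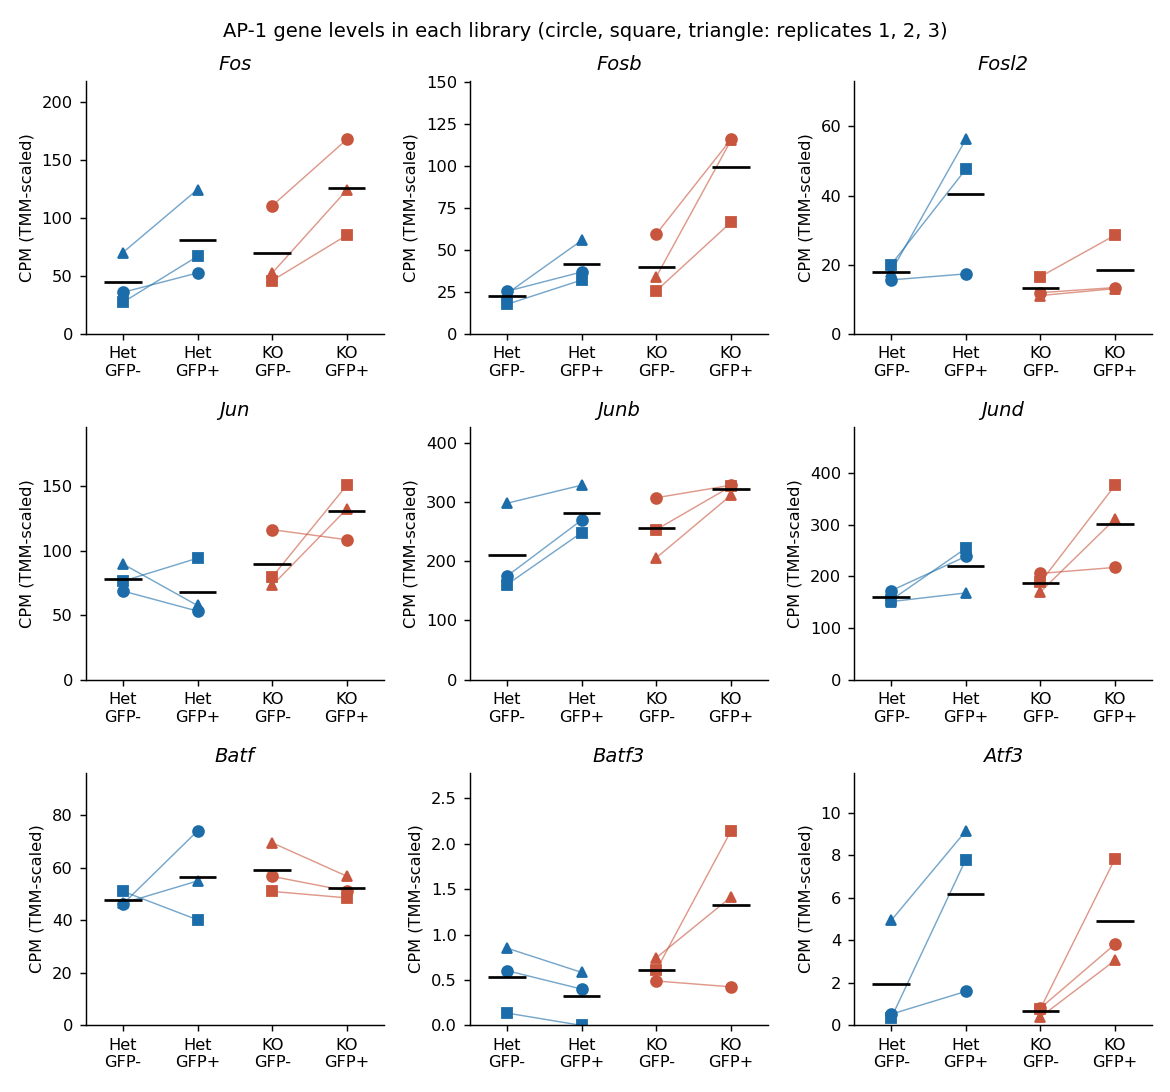
Level of each member in CPM (linear axis from 0) in the 12 libraries; blue is Het and red is KO, lines join the GFP- and GFP+ libraries of 1 recipient, symbols are replicates 1 to 3 and black bars are group means. For Fosb the 3 KO GFP+ libraries, 66.4 to 116 CPM, sit above all other libraries.

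The first question was how AP-1 RNA differed between Eomes reporter-positive and reporter-negative cells of the same mouse. Fos, Fosb, Fosl2, Junb, Jund and Atf3 were higher in the GFP+ library of 6 of 6 recipients, whereas Jun (3 of 6), Batf (2 of 6) and Batf3 (2 of 6) were not. Among all 13238 genes tested, 17.7% were higher in 6 of 6 and 37.6% had the same sign in 6 of 6. Averaged over recipients, the log2 difference was largest for Atf3 (2.28 ± 1.13, SD, n = 6), followed by Fosb (1.11 ± 0.43), Fos (0.90 ± 0.31), Fosl2 (0.70 ± 0.63), Jund (0.55 ± 0.38) and Junb (0.41 ± 0.25). For each of these 6 genes the exact two-sided sign-flip test over 6 recipients gave p = 0.03125, the smallest it can give. Any gene with the same sign in 6 of 6 recipients gets this value, so it adds nothing to that count. Over the 9 members the values for Jun, Batf and Batf3 were 0.562, 0.969 and 0.875. These differences carry no correction for GC content and length, which turned the sign of the Jund average and lowered that of Junb (below).

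**Figure D2:**
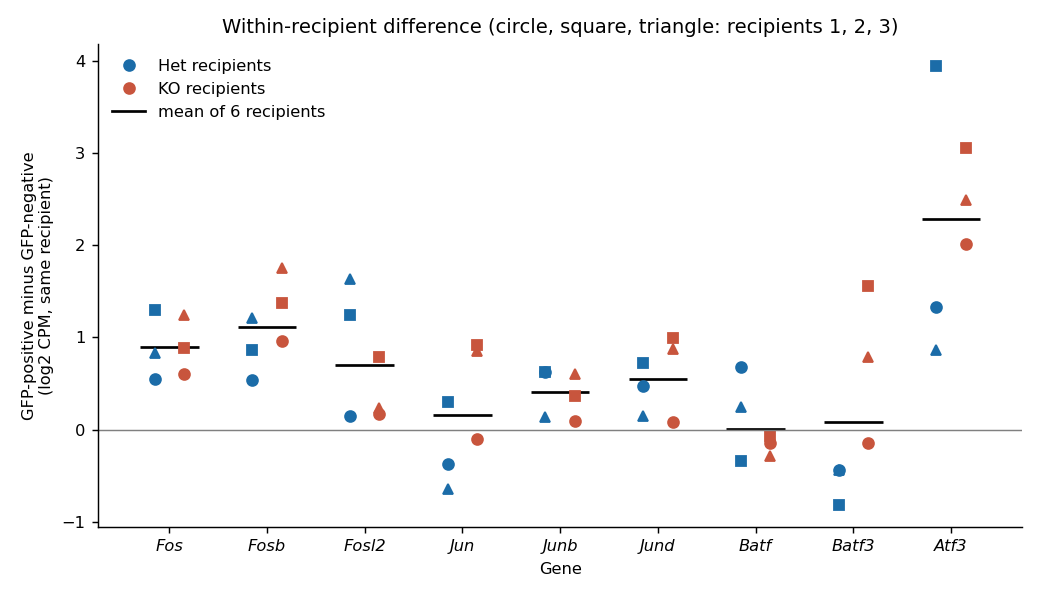
Difference in log2 CPM between the GFP+ and GFP- library of the same recipient (y axis) for each member (x axis); blue points are the 3 Het and red points the 3 KO recipients, symbols are recipients 1 to 3 and bars are means of 6. Fos, Fosb, Fosl2, Junb, Jund and Atf3 are above 0 in all 6 recipients, and Jun, Batf and Batf3 lie on both sides of 0. No correction for GC content and length is applied.

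Of the FOS genes, Fos, the prototype immediate-early gene, was at 35.7, 27.1 and 70.0 CPM in Het GFP- and 52.4, 66.7 and 124 CPM in Het GFP+ replicates 1, 2 and 3. In KO cells it was at 110, 45.8 and 52.3 CPM in GFP- and 167, 85.0 and 124 CPM in GFP+. The GFP- library of Het replicate 3 and that of KO replicate 1 were high for their groups and so were their GFP+ partners, so that the sorts overlapped between recipients although each GFP+ library exceeded its partner, by 1.47- to 2.46-fold. With 1 mean per group Fos was not called by edgeR's quasi-likelihood test (adjusted p = 0.250 in Het and 0.318 in KO), and with the recipient as a block it rose in both (log2 fold change 0.88 ± 0.17, SE, adjusted p = 0.00476 in Het; 0.91 ± 0.17, adjusted p = 0.00707 in KO). The blocked call was lost without Het recipient 2 (adjusted p = 0.0544) and without KO recipient 3 (adjusted p = 0.0996).

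Fosb, a second FOS protein induced by signalling, was the only member whose groups did not overlap in any of the 4 comparisons. Its values were 25.3, 17.6 and 23.9 CPM in Het GFP-, 36.8, 32.0 and 55.6 CPM in Het GFP+, 59.4, 25.6 and 34.0 CPM in KO GFP-, and 116, 66.4 and 115 CPM in KO GFP+. GFP+ did not overlap GFP- in Het or in KO cells, and Het did not overlap KO in GFP+ or in GFP- cells. Groups failed to overlap for 27.3% of genes between the Het sorts, 20.3% between the KO sorts, 7.48% between genotypes in GFP+ and 11.3% between genotypes in GFP- cells, and an exact permutation test of 3 against 3 libraries cannot go below 0.1, its value for Fosb in all 4 comparisons. In the blocked fit Fosb rose by 0.88 ± 0.19 on the log2 scale in Het (adjusted p = 0.00742) and by 1.36 ± 0.18 in KO cells (adjusted p = 0.0015). Without the block it was called in neither genotype alone (adjusted p = 0.137 and 0.166) but was called in the average of both (1.13 ± 0.23, adjusted p = 0.0115). The Het call with the block was lost without recipient 3 (adjusted p = 0.0523).

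Fosl2, which encodes FRA2, differed from Fos and Fosb in being carried by few libraries. It was at 15.6, 20.0 and 18.0 CPM in Het GFP-, 17.3, 47.6 and 56.3 CPM in Het GFP+, 11.9, 16.5 and 11.1 CPM in KO GFP-, and 13.4, 28.6 and 13.1 CPM in KO GFP+. The GFP+ libraries of Het replicates 2 and 3 and KO replicate 2 were high, and the other 3 GFP+ libraries were 1.11- to 1.18-fold above their partners. With the block Fosl2 rose in Het cells (1.04 ± 0.25, adjusted p = 0.0143), not without recipient 2 (adjusted p = 0.101) or recipient 3 (adjusted p = 0.0993), and was not called in KO cells (0.37 ± 0.26, adjusted p = 0.333).

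Of the JUN genes, Junb, which in T cells pairs with BATF as well as FOS proteins, was at 175, 160 and 298 CPM in Het GFP-, 269, 248 and 328 CPM in Het GFP+, 307, 253 and 206 CPM in KO GFP-, and 328, 326 and 311 CPM in KO GFP+. The 3 KO GFP+ libraries were close together and above all KO GFP- libraries, while the high Het GFP- replicate 3 overlapped the Het GFP+ group. Junb was called in neither genotype with the block (0.46 ± 0.16, adjusted p = 0.0528 in Het; 0.35 ± 0.16, adjusted p = 0.129 in KO). Still with the block it was called in Het with DESeq2 size factors (0.48, adjusted p = 0.0485) and without recipient 3 (0.67, adjusted p = 0.0381), and in KO without recipient 1 (0.51, adjusted p = 0.0417).

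Jund, the JUN protein with the steadiest expression, was at 172, 154 and 151 CPM in Het GFP-, 238, 254 and 168 CPM in Het GFP+, 205, 188 and 170 CPM in KO GFP-, and 217, 376 and 311 CPM in KO GFP+. The KO sorts did not overlap. The ratio of GFP+ to GFP- was 2.00 in KO recipient 2, 1.83 in KO recipient 3 and 1.65 in Het recipient 2, and smallest in KO recipient 1 (1.06) and Het recipient 3 (1.11). Recipients 2 held the largest ratio of each genotype, and theirs were the GFP+ libraries with 58.3% and 54.3% of counts in 4 features, whose part in the result was not tested. With the block Jund rose in KO cells (0.65 ± 0.19, adjusted p = 0.0373) and was not called in Het cells (0.45 ± 0.19, adjusted p = 0.104). The KO call was lost without recipient 2 (0.47, adjusted p = 0.206) and without recipient 3 (0.53, adjusted p = 0.284). Jund has the highest GC content of the 9 members, 67.1% of its exons against 51.9% to 62.6%, and an offset for GC content and length in each library turned its Het difference to -0.31 ± 0.10, reduced the KO difference to 0.04 ± 0.10 and turned their average from 0.55 to -0.13, all with the block and with no call left. The same offset took the average for Junb from 0.41 to 0.14 (adjusted p = 0.214).

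Jun was the one member of its family with no common direction. It was at 68.7, 76.2 and 89.6 CPM in Het GFP-, 53.1, 94.1 and 57.4 CPM in Het GFP+, 116, 79.5 and 73.0 CPM in KO GFP-, and 108, 151 and 132 CPM in KO GFP+. It was higher in GFP+ cells of 1 of 3 Het and 2 of 3 KO recipients. The blocked log2 difference was -0.25 ± 0.22 in Het (adjusted p = 0.445) and 0.55 ± 0.22 in KO cells (adjusted p = 0.0974), the latter called without KO recipient 1 (0.91 ± 0.20, adjusted p = 0.00597), where the GFP+ library stood apart.

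Batf had the mean difference between the sorts nearest to 0 (0.01 ± 0.39 in log2 CPM, SD, n = 6), with recipients from -0.34 to 0.68. Its values were 46.2, 51.1 and 46.5 CPM in Het GFP-, 74.0, 40.2 and 55.0 CPM in Het GFP+, 56.7, 51.0 and 69.5 CPM in KO GFP-, and 51.2, 48.5 and 56.8 CPM in KO GFP+. The blocked log2 difference was 0.22 ± 0.18 in Het (adjusted p = 0.401) and -0.18 ± 0.18 in KO cells (adjusted p = 0.497). Batf3, best known as a factor of conventional dendritic cells, was near the limit of detection, from 0 counts in Het GFP+ replicate 2 to 15 counts in 2 GFP- libraries, and its highest level, 2.14 CPM in KO GFP+ replicate 2, rested on 3 counts. A difference in Batf3 was not detectable at this depth (blocked average 0.10 ± 0.44, adjusted p = 0.877).

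Atf3, an ATF family gene induced by stress and by receptor signalling, was rare but had the largest ratios. It was at 0.528, 0.340 and 4.94 CPM in Het GFP-, 1.6, 7.81 and 9.15 CPM in Het GFP+, 0.815, 0.790 and 0.397 CPM in KO GFP-, and 3.83, 7.85 and 3.06 CPM in KO GFP+. The KO sorts did not overlap, while Het GFP- replicate 3 was above Het GFP+ replicate 1. Ratios within a recipient ran from 1.85 (Het 3) to 22.9 (Het 2), where the GFP- library held 5 counts and the GFP+ library 20. With the block Atf3 rose in Het (1.96 ± 0.56, adjusted p = 0.0294) and in KO cells (2.78 ± 0.60, adjusted p = 0.0131). The Het call was lost without recipient 1 (2.04, adjusted p = 0.0711) and without recipient 2 (1.09, adjusted p = 0.15), which lowered the fold change itself, and the KO call without recipient 2 or 3 (adjusted p = 0.067 and 0.11).

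In all, 0 of 9 members were called in Het and 0 of 9 in KO cells with 1 mean per group, where 3.45% and 0.128% of all genes were called. At an unadjusted p under 0.05 there were 3 members in Het (Fosb, Fosl2 and Jund) and 4 in KO (Fosb, Jun, Jund and Atf3). Of all 13238 genes, 3072 in Het and 2321 in KO were under it. DESeq2 called 1 in each, Fosl2 in Het and Fosb in KO, beside 9.03% and 3.04% of all genes. With the recipient as a block, 4 members rose in Het (Fos, Fosb, Fosl2 and Atf3) and 4 in KO cells (Fos, Fosb, Jund and Atf3), beside 12.8% and 9.6% of all genes called higher and 22.2% and 17.7% called in either direction. In the average of both genotypes 3 members rose without the block (Fosb, Jund and Atf3, beside 9.91% of genes called higher and 18.1% called in all) and 6 with it (Fos, Fosb, Fosl2, Junb, Jund and Atf3, beside 20.3% higher and 41.1% in all). Of the 3 unblocked calls, that of Fosb held without each library in turn, whereas those of Jund and Atf3 were lost without any 1 of 7 and 9 libraries. The median log2 difference of the 9 members in the blocked average was 0.55, against -0.02 for all genes tested, and it was 0.18 with the GC and length offset and 0.39 without both recipients 2. Without both recipients 2, whose GFP+ libraries had the high share of counts in 4 features, the blocked counts were 1 in Het (Fosb), 3 in KO (Fos, Fosb and Atf3) and 3 in the average (the same genes). Of all genes, 5.66%, 4.31% and 12.3% were then called higher, and 8.6%, 5.98% and 21.8% in either direction. With the GC and length offset the blocked average kept 4 calls (Fos, Fosb, Fosl2 and Atf3), beside 19.4% of all genes called higher and 38.7% in all. Jund turned to -0.13 and Jun to -0.02.

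**Figure D3:**
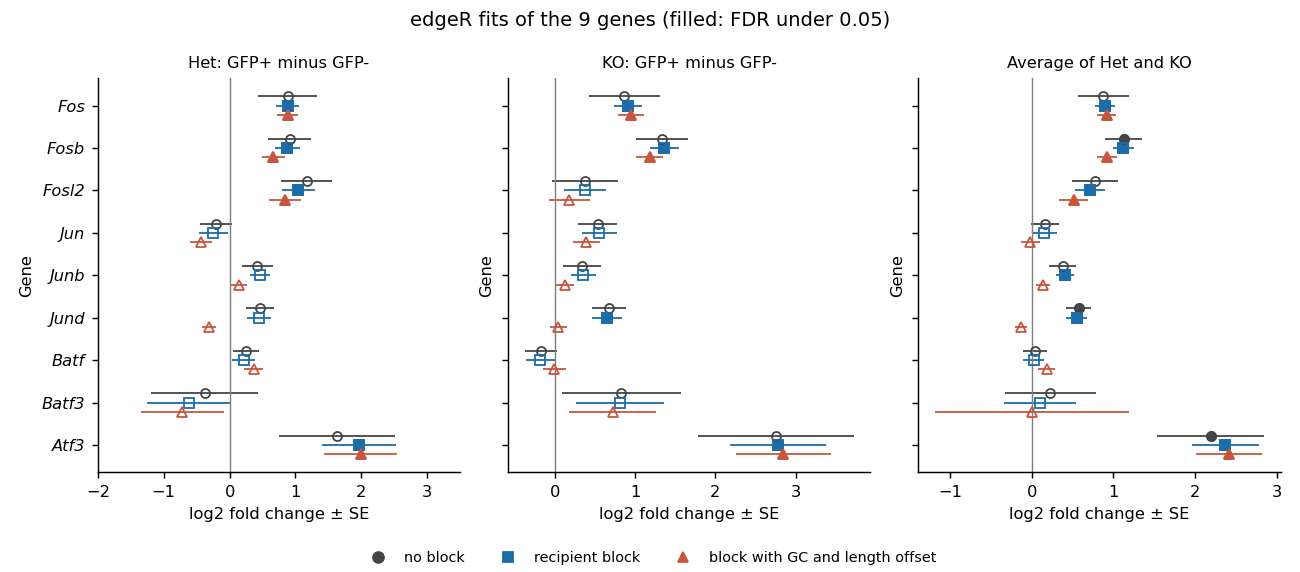
Log2 fold change GFP+ minus GFP- with its SE (x axis) for each member (y axis) in Het cells, KO cells and their average, from edgeR without a block (circles), with the recipient block (squares) and with block and GC and length offset (triangles); filled symbols have an adjusted p under 0.05. Fos, Fosb and Atf3 are filled in all blocked fits, while the offset takes Jund from 0.55 to -0.13 in the average.

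The second question, named in the study's design, was which genes differ with Eomes itself, in GFP+ cells of the 2 genotypes. No member passed the test (0 of 9, beside 0.106% of all genes called). At an unadjusted p under 0.05 there were 3 members, beside 824 of all 13238 genes. Fosb and Jun were lower in each Het than in each KO library: Fosb by 1.26 ± 0.33 (unadjusted p = 0.00224, adjusted p = 0.294) and Jun by 0.94 ± 0.25 (unadjusted p = 0.00246, adjusted p = 0.301) on the log2 scale. Non-overlapping groups with Het lower made up 3.26% of all genes. Fosb passed with DESeq2 (-1.28 ± 0.34, adjusted p = 0.0304) and with no filter on low counts (adjusted p = 0.0425), and over the other alternatives its adjusted p ran no lower than 0.17. Fosl2 had the opposite sign, 1.24 ± 0.41 (adjusted p = 0.531), from the high Het replicates 2 and 3, and overlapped between genotypes. Log2 differences of the other members were -0.63 ± 0.44 for Fos, -0.19 ± 0.24 for Junb, -0.45 ± 0.21 for Jund, 0.12 ± 0.20 for Batf, -1.42 ± 0.85 for Batf3 and 0.44 ± 0.90 for Atf3, with adjusted p of 0.814 or more. In all, 6 of 9 were below 0.

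Reporter-negative cells, which carry the genotype but little Eomes RNA, give the background of that comparison. No member and 0 of 13238 genes passed edgeR's quasi-likelihood test there (percent called 0.0; 695 genes at an unadjusted p under 0.05, 45 called by DESeq2), and Fosb was again lower in each Het library, by 0.83 ± 0.32 on the log2 scale (adjusted p = 0.935). Fos was at -0.65 ± 0.44, close to its value in GFP+ cells, and Jun at -0.19 ± 0.24. In all, 7 of 9 members were below 0, among them Jund (-0.24 ± 0.21), which the GC and length offset moved to 0.00405. Het and KO libraries come from different recipients, so a difference between donors, recipients or days cannot be told apart from one of genotype.

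Whether the GFP difference itself differed between genotypes was tested by the interaction. No member passed it, with or without the block (0 of 9; 0.00755% and 0.0755% of all genes). The smallest unadjusted p was that of Jun, whose GFP difference was 0.80 ± 0.31 lower in Het than in KO cells with the block (unadjusted p = 0.0247, adjusted p = 0.857). The interaction was -0.49 ± 0.26 for Fosb, 0.67 ± 0.36 for Fosl2 and -0.03 ± 0.24 for Fos (unadjusted p = 0.0852, 0.0921 and 0.906). Calls in only 1 genotype, such as Fosl2 in Het and Jund in KO cells, are therefore not shown to differ between genotypes.

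The AP-1 genes were set beside lists of genes that respond to the same signals, chosen with earlier results of these data known. In the blocked average used for all of them, 20.3% of all genes were called higher and 20.7% lower, with a median of -0.02. Immediate-early genes outside AP-1, listed as genes that respond to antigen or to the stress of dissociation and sorting, were split: with the block 13 of 27 rose and 4 fell in the average of both genotypes, with a median of 0.41. Nr4a2, an orphan nuclear receptor, rose by 2.49 ± 0.22 and Klf4, a zinc finger factor, by 2.22 ± 0.26. Btg2, an antiproliferative gene of the same class, fell by 0.65 ± 0.09. Their summed CPM was higher in GFP+ cells of 3 of 6 recipients, with ranges that overlapped between sorts (2833 to 4128 in Het GFP-, 3078 to 3836 in Het GFP+, 2752 to 3454 in KO GFP-, 2697 to 3489 in KO GFP+).

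Zfp36, an RNA-decay factor, and Dusp1, a MAP kinase phosphatase, were higher in the GFP+ library of 6 of 6 recipients, by 0.63 ± 0.28 and 0.78 ± 0.33 on the log2 CPM scale (SD, n = 6). Egr1 was higher in 5 of 6 (0.70 ± 0.60) and Ier2 in 5 of 6 (0.22 ± 0.40). In the blocked average Zfp36, Dusp1 and Egr1 rose (0.63 ± 0.11, 0.78 ± 0.12 and 0.69 ± 0.19) and Ier2 was at 0.21 ± 0.12 (adjusted p = 0.187). Few heat-shock genes were called: 1 of 13 tested rose (Bag3, a co-chaperone, 0.67 ± 0.14), 1 fell (Hspe1, a mitochondrial chaperonin, by 0.75 ± 0.15), the median was -0.27, and the sum was higher in GFP+ cells of 2 of 6 recipients. Hspa1a and Hspa1b, the inducible HSP70 genes, were at 0.213 to 3.90 CPM in all libraries, on 2 to 59 counts, and higher in GFP+ cells of 2 of 6 recipients each. No label gives the time or temperature of the sort, and GFP+ cells were fewer per recipient, so the part of sorting in the AP-1 differences was not tested.

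Genes of MAP kinase feedback, which are transcribed when the kinases upstream of FOS and JUN are active, were called higher in 5 of 12 cases and lower in 1, while 6 did not pass the test in the blocked average. Their summed CPM was higher in GFP+ cells of 6 of 6 recipients. Dusp4 rose by 1.35 ± 0.14 and Dusp2 by 0.63 ± 0.11, both nuclear phosphatases of MAP kinases, while the cytoplasmic phosphatase gene Dusp7 fell by 1.11 ± 0.13. Of the kinases and serum response factors upstream, 5 of 24 rose and 6 fell, shares near those of all genes (20.3% and 20.7%), with a median of -0.08: Mapk3 (ERK1) rose by 0.49 ± 0.12, while Elk3, Cops5 and Itch, the last a ubiquitin ligase of JUN proteins, fell by 0.39 ± 0.09, 0.43 ± 0.11 and 0.34 ± 0.09.

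Of the other subunits and partners of AP-1, 8 of 25 rose and 3 fell, with a median of 0.08. Irf8, a partner of BATF proteins, rose by 1.31 ± 0.16, Jdp2 by 1.09 ± 0.19 and Nfatc1 by 0.59 ± 0.12, while Nfatc3 fell by 0.66 ± 0.10. Genes known from T cells to carry AP-1/NFAT or BATF/IRF4 elements were called in both directions, 5 of 18 up and 10 down with a median of -0.76, and their sum was lower in GFP+ cells of 6 of 6 recipients. Ahr, a ligand-activated transcription factor, fell by 2.24 ± 0.17, Il2ra, the IL-2 receptor alpha chain, by 1.44 ± 0.16 and the costimulator gene Icos by 1.20 ± 0.14. The 5 that rose, named here after their values were seen, were the cytokine genes Il10 (1.88 ± 0.41) and Il21 (0.89 ± 0.30), the receptor genes Pdcd1 (1.03 ± 0.18) and Tnfrsf9 (0.81 ± 0.17), and Prdm1 (0.37 ± 0.12), which encodes the repressor BLIMP1. Without the block the list held 2 up and 9 down.

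**Figure D4:**
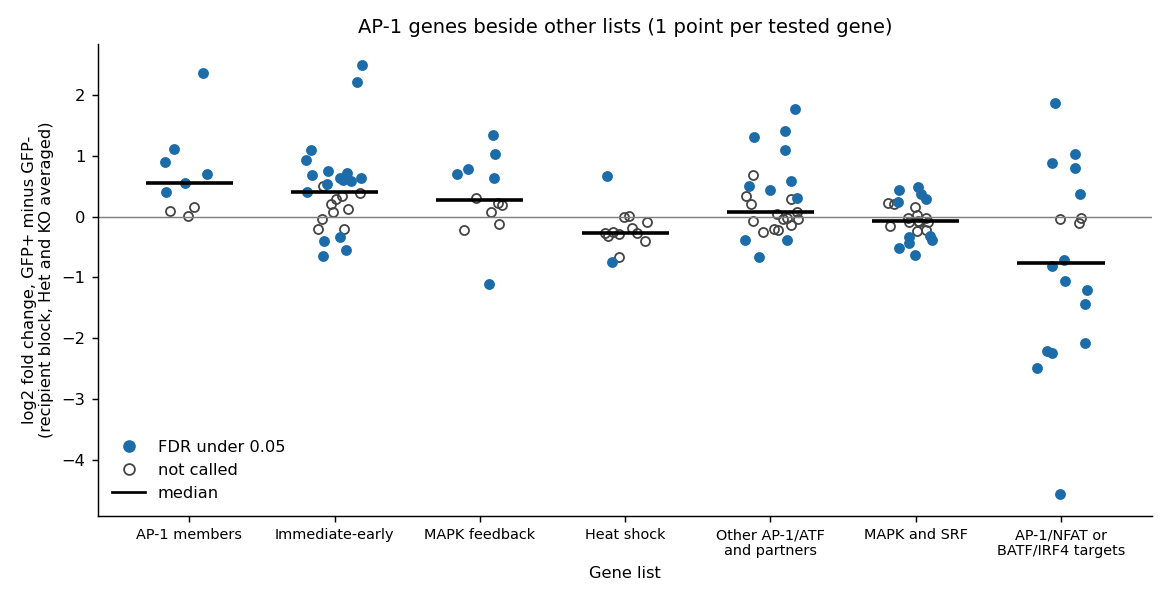
Log2 fold change GFP+ minus GFP- in the blocked average of both genotypes (y axis), 1 point per tested gene, for the 9 AP-1 members and 6 lists (x axis); blue points have an adjusted p under 0.05 and bars are medians. Medians run from 0.55 for the members and 0.41 for the immediate-early list to -0.27 for heat shock and -0.76 for genes with AP-1/NFAT or BATF/IRF4 elements. The fit has no GC and length offset, which moves the members' median to 0.18 and Jund from 0.55 to -0.13.

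Myeloid transcripts moved with the same sort. The 14 myeloid genes summed to 309, 1207 and 2414 CPM in Het GFP-, 916, 4818 and 6387 CPM in Het GFP+, 181, 1055 and 55.3 CPM in KO GFP-, and 926, 2762 and 511 CPM in KO GFP+ replicates 1, 2 and 3. They were higher in the GFP+ library of 6 of 6 recipients, by 2.62- to 9.24-fold, and none of the 14 was at 0 in any group. Granule and calgranulin genes were the most abundant, among them Ltf (860 CPM in Het GFP+), S100a9 (824) and Ngp (795). The sum of 6 erythroid genes was also higher in 6 of 6 recipients, while that of the CD4 T cell genes was lower in 6 of 6. Genes of the CD4 T cell list did not all move alike. Mean Cd4 was 773 CPM in Het GFP-, 457 in Het GFP+, 744 in KO GFP- and 479 in KO GFP+. Mean Cd3e was 179, 218, 196 and 197 CPM in the same order. Fosl2 and Atf3 were highest in the 3 libraries with the largest myeloid sums, Het GFP+ replicates 3 and 2 and KO GFP+ replicate 2. The GFP+ libraries of Het replicate 2 and KO replicate 2 also had 58.3% and 54.3% of their counts in 4 features. Het GFP- replicate 3, with a sum of 2414 CPM, had Atf3 at 4.94 CPM. Its Fosl2, at 18.0 CPM, was below that of Het GFP- replicate 2 (20.0 CPM, sum 1207 CPM). The order did not hold for Fosb, which was highest in KO GFP+ replicates 1 and 3, where the sum was 926 and 511 CPM. The part of myeloid RNA in the AP-1 differences, and in those of the listed genes, such as Irf8 and Klf4, was not tested. The dendritic cell genes, set beside Batf3, summed to 13.2 to 118 CPM with no common direction (higher in 3 of 6), and Xcr1 and Clec9a, which define the dendritic cells that need BATF3, were at 0 in all KO GFP+ libraries, with 7 and 6 counts in the Het GFP+ libraries.

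**Figure D5:**
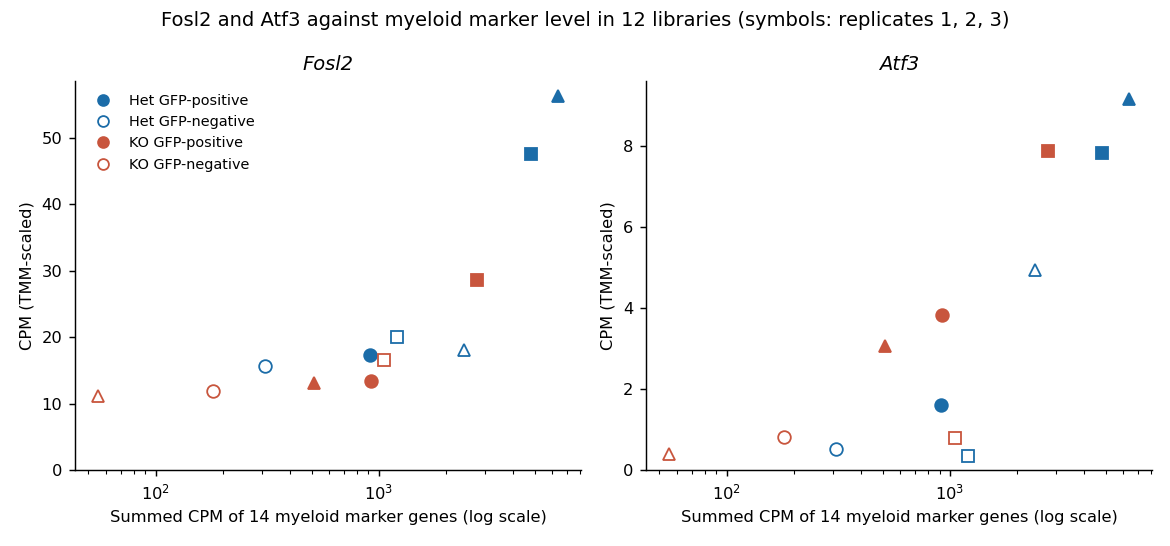
CPM of Fosl2 and Atf3 (y axes, from 0) against the summed CPM of 14 myeloid genes (x axis, log scale) in the 12 libraries; filled points are GFP+, open points GFP-, blue Het and red KO, and symbols are replicates 1 to 3. The 3 libraries with the largest myeloid sums, 2762 to 6387 CPM, hold the highest Fosl2 (28.6 to 56.3 CPM) and Atf3 (7.81 to 9.15 CPM).

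Across the 12 libraries, which share 6 recipients and differ in depth, the levels of some members ran together; these correlations of log2 CPM are a description. Fos ran with Fosb (Pearson r 0.90, Spearman rho 0.83) and Junb (0.89, 0.94), and Junb with Atf3 (0.74, 0.77). Batf ran with no other member beyond r 0.24, and its lowest value was with Fosl2 (-0.44). Among 8361 other genes whose mean level reached 10 CPM, the most like Fos were Zfp36 (0.95), Gadd45b (0.92) and Dusp4 (0.90), and the most like Junb were Dusp1 (0.95), Gadd45b (0.93) and Zfp36 (0.90). Fosb was most like Gm37352 (0.91), Kif15 (0.90) and Fos (0.90), and Fosl2 most like Trp53inp2, Gsr and Igf1r (0.93 each). The gene most like Atf3 was Nr4a1 (0.94), followed by Pld4 and Chka (0.92 each), and Jund went with Dgkz, Dhx34 and Rbck1 (0.95, 0.95 and 0.94). Lower values were reached by Jun (Cdk5rap1 0.83, Bri3bp 0.78, Tbc1d2 0.78), Batf (Gnptg 0.85, Naa10 0.84, Helb 0.76) and Batf3 (Tgfbr3 0.89, Plbd2 0.88, Mrgbp 0.88).

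The authors' deposited tables of genes past their threshold list 3 of the 9 members. These tables hold 1406 genes for the Het sorts, 388 for the KO sorts and 77 for GFP+ cells of both genotypes. In the authors' deposited table for the Het sorts Fosb has a log2 fold change of 0.84 (adjusted p = 0.0218) and Fosl2 of 1.01 (adjusted p = 0.0368), from their DESeq2 run. The authors' deposited table for the KO sorts lists Fosb at 1.09 (adjusted p = 0.0217) and Atf3 at 1.80 (adjusted p = 0.000508). The authors' deposited table for GFP+ cells of both genotypes lists Fosb at 1.07 (adjusted p = 0.02), with a sign that the counts show to be KO minus Het.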

How the data were processed

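RNA was extracted with TRI reagent, depleted of ribosomal RNA and made into libraries with a stranded total RNA kit, per the labels' protocols. TopHat2 2.0.13, featureCounts 1.5.0-p1, DESeq2 1.6.1 and build mm10 are named, per the submitters' processing notes; the strand setting of the counting is not given in the sources used here, so reads of overlapping opposite genes cannot be told apart. The authors deposited whole-number counts per gene, not normalized, in a matrix and in 1 file per library, which were identical in every value, and tables of listed genes with log2 fold changes and their errors, mean normalized signal, a test statistic (score) and p-values.

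Counts were tested with edgeR 4.0.16 (R 4.3.3): quasi-likelihood F-test, TMM scaling, filterByExpr (minimum count 10, total 15), which left 13238 genes, 12 libraries, 1 mean per group, and Benjamini-Hochberg adjustment over all tested genes of each of 6 comparisons, called at 0.05. An SE is the log2 fold change over the root of its F. Log2 CPM for differences within recipients used a prior count of 2, and levels are CPM without it. Same-numbered libraries of a genotype share a recipient, per the design text in the labels, and their deviations from group means correlated by 0.547, 0.241 and 0.617 in Het and 0.507, 0.506 and 0.263 in KO recipients, so the recipient block is printed where it changes a call. Replicates are separate recipients. The GC and length offset used GENCODE transcripts for 99.3% of tested genes. DESeq2 1.42.0 was an alternative. The Het comparison, without and with the block, was also run on simulated counts, and no result here rests on that run.

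Total counts were 2116894 to 18167236, and PCR reads carry no molecular identifiers, and depth limits the precision of rare members. The 9 members, the 6 lists and the marker lists were chosen with earlier results of these data known. Named were all members, Eomes, 6 genes of the stress response (Dusp1, Egr1, Ier2, Zfp36, Hspa1a, Hspa1b), up to 4 called genes of smallest adjusted p per list and comparison (fewer are printed), and 3 like genes per member. Xcr1, Clec9a, Ltf, S100a9, Ngp, Cd4, Cd3e and Junos or Gm11175 were named after their values were seen. No protein sequences were used here. One gene that the naming rule picked is not reported here.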

Additional observations from a re-analysis of the deposited data

How the results depend on the processing

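The sign of the GFP difference of Fos, Fosb, Fosl2, Junb and Atf3 held in every alternative for Het, KO and their average; that of Jund did not. Depth limits Batf3 and Atf3, on at most 15 and 94 counts per library, and the recipients left out in turn leave 2 per genotype. Within recipients, only Batf3 changed sign with another scaling or prior count, to -0.10 with a prior count of 0.5. Leaving out single recipients also turned means near 0 negative. These were Batf (0.01 over all recipients) without Het recipient 1 or 3, and Batf3 (0.09) without KO recipient 2 or 3.

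Members called moved, with the replicate block, from 0 to 4 in Het, 0 to 4 in KO and 3 to 6 in the average; with block and GC and length offset they were 4, 3 and 4. DESeq2 called 1 in Het, 1 in KO, 1 between genotypes in GFP+ cells (0 in the main test) and 5 in the average. It called 9.03%, 3.04%, 0.703% and 25.7% of all genes in these comparisons. With no filter on low counts there were 1 in KO, 1 between genotypes in GFP+ cells and 5 in the average, beside 0.849%, 0.304% and 12.4% of all genes. Without both recipients in doubt the blocked counts were 1 in Het and 3 in the average. Leaving out 1 library gave 0 to 1 in Het, 0 to 2 in KO and 1 to 5 in the average, and leaving out 1 recipient with the block 1 to 3 in Het, 1 to 6 in KO and 5 to 7 in the average. With the block and DESeq2 size factors the members called were 5 in Het, 4 in KO and 6 in the average, beside 22.3%, 17.7% and 41.2% of all genes. Leaving out recipients with the block, both recipients in doubt, and blocked DESeq2 size factors were chosen after seeing the data. No paired analysis was possible because Het and KO come from different recipients, for the 2 comparisons between genotypes.

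Genes called in Het moved from 457 to 1196 with DESeq2, 897 with no filter, 2944 with the block (1154 without both recipients in doubt) and 2774 with block and offset. In KO they moved from 17 to 403, 201, 2349 (803) and 2312, and to 10 with only the groups compared. Between genotypes in GFP+ cells 14 became 93 with DESeq2, 72 with no filter and 2 with only those groups, and in GFP- cells 0 became 45, 26 and 7. For the interaction 1 became 2 without features above 5% of a library, 11 with DESeq2, 6 with no filter, 10 with the block, 3 with the offset and 27 with both. In the average 2395 became 5438 with the block (2922 without both recipients in doubt) and 5121 with block and offset. Without 1 library the ranges were 88 to 360, 5 to 1760, 3 to 7, 0 to 7, 0 to 1 and 713 to 4650 in that order of comparisons, and without 1 recipient, blocked, 1070 to 1817 in Het, 319 to 3930 in KO, 1 to 19 for the interaction and 3412 to 6204 in the average. The high ends, 1760, 4650, 3930 and 6204, were without the GFP+ library or the recipient of KO replicate 1; the cause was not tested.

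Values that changed sign, none of them called, were as follows. With the offset, without and with block, Jund was at -0.311 and -0.310 in Het and -0.134 and -0.132 in the average, and Jun at -0.018 and -0.020 in the average; Jund was at 0.0041 between genotypes in GFP- cells. With no filter Batf was at -0.031 in the average. With the block and without both recipients in doubt, the average was -0.064 for Jun and -0.017 for Batf3. Leaving out 1 library, Batf ran from -0.011 (without Het GFP+ replicate 1) to 0.42 in Het, -0.127 (the same library) to 0.28 between genotypes in GFP+ cells and -0.099 (the same library) to 0.12 in the average. Batf3 ran from -0.89 to 0.18 (without Het GFP- replicate 3) in Het, -0.78 to 0.21 (without Het GFP- replicate 2) between genotypes in GFP- cells and -0.026 (without Het GFP+ replicate 3) to 0.51 in the average. Jun ran from -0.35 to 0.020 (without KO GFP- replicate 1) between genotypes in GFP- cells. Atf3 ran from -0.060 (without Het GFP+ replicate 3) to 0.93 between genotypes in GFP+ and -0.62 (without Het GFP- replicate 3) to 2.03 in GFP- cells. Leaving out 1 recipient with the block, Jun ran from -0.52 to 0.0011 (without recipient 3) and Batf from -0.045 (without recipient 1) to 0.45 in Het, and in the average Batf ran from -0.106 (without Het recipient 1) to 0.13 and Batf3 from -0.059 (without KO recipient 2) to 0.30. For these the cause was not tested.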
